A study of Mus musculus with 24 samples.

Results

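The guanylate-binding proteins (GBPs) and immunity-related GTPases (IRGs) are interferon-inducible GTPases, and 10 of their genes were followed in mouse alveolar macrophages across postnatal ages, with and without LPS. The genes were Gbp2, Gbp3, Gbp4, Gbp5, Gbp6, Gbp7, Gbp9, Irgm1, Igtp and Iigp1, found by symbol among the 56691 Ensembl genes of the count table. Of these 10 genes, 9 passed the filter on low values (2 or more libraries at an FPKM of 1 or above) and entered the tests with 11774 genes in all. Gbp4 did not pass it, with 521 counts over all libraries and no library above 0.447 FPKM. Gbp9 reached that minimum in only 2 libraries, both from day 1 mice with LPS, and Iigp1 in 8, so both entered through the groups where they were high. Comparisons of Gbp9 that use the day 1 LPS group are therefore not independent of the filter.

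Macrophages were obtained by airway lavage from mice at postnatal day 1, 3, 7, 21 or 49 (D1, D3, D7, D21 and D49), and cells of several mice were pooled. They were then exposed to LPS at 400 ng/mL for 4 h, or left in LPS-free medium (control). The 13 control libraries split into 2 (D1), 3 (D3), 2 (D7), 3 (D21) and 3 (D49), and the 11 LPS libraries into 3 at D1 and 2 at each later age. Strain and sex were not in the labels, and no group carried a genetic alteration in them. The labels do not say that replicates came from separate pools, and every p-value below therefore reflects only how far these libraries spread, which may be technical.

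GBPs are large GTPases that assemble on pathogen vacuoles and on cytosolic bacteria and, in mouse macrophages, promote the sensing of bacterial LPS by caspase-11. IRGs are smaller GTPases of which some load onto pathogen vacuoles as effectors, while the IRGM proteins hold them inactive on the cell's own membranes. Genes of both families are classical targets of interferon gamma and respond to type I interferon, which macrophages make when LPS engages Toll-like receptor 4.

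Gbp2, Gbp3, Gbp5 and Gbp7 lie on chromosome 3, Gbp4, Gbp6 and Gbp9 on chromosome 5 and Irgm1 and Igtp on chromosome 11. RefSeq promoter windows (build GRCm38.p6, 250 bases before to 50 after the annotated start) were matched for Gbp2, Gbp3, Gbp5, Gbp7, Irgm1 and Igtp. They were searched on both strands for the core of the interferon-stimulated response element (ISRE), GAAANNGAAA, and for the core of the gamma-activated site (GAS), TTCNNNGAA. All 6 genes had a window with the ISRE core, which was present in 3.44% of 32851 windows of the same length. The GAS core was present in the windows of Gbp5, Gbp7 and Igtp, against 8.3% of all windows, and both cores together in those 3 genes, against 0.454%. A second window of Gbp3 held neither. A match is a description of letters and not a shown binding site. The windows of 4 genes are printed to show the arrangements met, an ISRE core alone (Gbp2), a distant ISRE core with 2 GAS cores (Gbp5), overlapping ISRE cores (Irgm1) and an ISRE core just downstream of a GAS core (Igtp). They are written 5′ to 3′ on the gene's strand, with every ISRE and GAS core in capitals.
Gbp2: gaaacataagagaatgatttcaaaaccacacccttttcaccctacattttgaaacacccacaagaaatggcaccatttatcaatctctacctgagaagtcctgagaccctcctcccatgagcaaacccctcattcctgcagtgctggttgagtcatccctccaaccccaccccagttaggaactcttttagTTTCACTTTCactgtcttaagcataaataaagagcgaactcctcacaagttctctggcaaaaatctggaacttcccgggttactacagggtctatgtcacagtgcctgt
Gbp5: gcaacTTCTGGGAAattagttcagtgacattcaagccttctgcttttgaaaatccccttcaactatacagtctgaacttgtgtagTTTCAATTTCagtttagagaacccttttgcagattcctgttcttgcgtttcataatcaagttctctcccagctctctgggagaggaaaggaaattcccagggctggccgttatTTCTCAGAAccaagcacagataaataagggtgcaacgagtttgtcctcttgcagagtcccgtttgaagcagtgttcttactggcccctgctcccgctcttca
Irgm1: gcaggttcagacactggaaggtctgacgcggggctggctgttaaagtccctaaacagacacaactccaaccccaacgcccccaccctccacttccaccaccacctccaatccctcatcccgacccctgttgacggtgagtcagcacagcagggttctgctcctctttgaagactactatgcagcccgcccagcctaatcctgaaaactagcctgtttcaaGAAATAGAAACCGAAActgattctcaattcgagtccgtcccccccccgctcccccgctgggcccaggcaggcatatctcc
Igtp: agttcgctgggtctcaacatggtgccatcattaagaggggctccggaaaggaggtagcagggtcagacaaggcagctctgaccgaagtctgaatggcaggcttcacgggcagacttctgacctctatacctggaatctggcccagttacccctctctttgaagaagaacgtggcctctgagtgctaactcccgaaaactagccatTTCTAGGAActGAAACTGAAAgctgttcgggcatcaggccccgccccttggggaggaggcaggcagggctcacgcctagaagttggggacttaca
These windows are chr3:142620413-142620712 (plus strand) for Gbp2, chr3:142496684-142496983 (plus strand) for Gbp5, chr11:48871371-48871670 (minus strand) for Irgm1 and chr11:58199306-58199605 (plus strand) for Igtp. In the Igtp window the GAS core began 45 bases and the ISRE core 34 bases before the start. The 2 ISRE cores of Irgm1 began 30 and 24 bases before it and share letters. In Gbp5 the ISRE core began 165 bases before the start, and the GAS cores 245 and 52 bases before it.

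**Figure D1:**
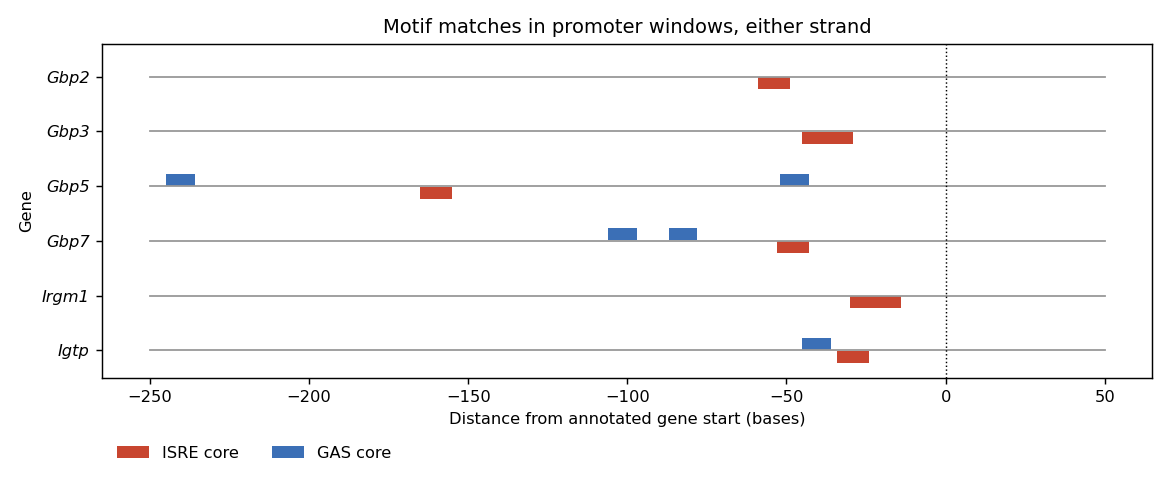
Positions of ISRE core (red) and GAS core (blue) matches on either strand in the promoter windows of 6 genes, with distance in bases from the annotated start (dotted line at 0) on the x axis. Each of the 6 windows holds an ISRE core, and those of Gbp5, Gbp7 and Igtp also hold a GAS core.

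Library totals ran from 15770751 to 23334625 counts. All 11 alveolar macrophage markers searched were tested, and their summed level was 3017 ± 302 TMM-scaled CPM (mean ± SD) in D1 controls and 31280 ± 9940 in D49 controls. Chil3 made up most of that difference (328 and 25530 CPM), and Marco (591 and 178 CPM) and Car4 (285 and 94.7 CPM) were lower at D49. In 10 of the 24 libraries the balance of GC-rich to GC-poor transcripts deviated by more than 1 on a log2 scale (GC deviation, -3.17 to 2.84). Those with high values were at D1 and D3 and those with low values at D21 and D49. Transcripts of exocrine glands were high in LPS libraries at D1, D3 and D7 (summed 1081 ± 235 CPM at D1, against 0.428 ± 0.272 in controls) and in control libraries at D21 and D49 (1673 ± 625 at D49, against 8.31 ± 1.47 with LPS). The part of these transcripts in the results below was not tested.

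LPS raised most of the family at each of the 5 ages, and the ratio of the summed levels was larger for the GBPs than for the IRGs (the plot of levels by library). Summed over the 10 genes, the level went from 279 ± 42.2 to 2118 ± 283 CPM at D1, from 189.5 ± 34.2 to 1657 ± 206 at D3 and from 137 ± 3.65 to 2200 ± 108 at D7. It went from 194 ± 28.3 to 2111 ± 15.4 at D21 and from 345 ± 37.5 to 2141 ± 93.4 at D49. The control sum was lowest at D7 and the LPS sum at D3. The ratio of LPS to control was 7.6, 8.74, 16.1, 10.9 and 6.2 from D1 to D49. The ratio for the 7 GBPs alone was 10.9 at D1, 21.9 at D7 and 10.1 at D49. For the 3 IRGs it was 4.58, 6.86 and 2.33 at the same ages. Irgm1 made up most of the IRG sum with LPS (504 of 663 CPM at D1). Ranked gene by gene on log2 fold change, the tested GBPs lay ahead of the IRGs at D1 but not at every age. At D1 the last of these GBPs was Gbp2 at rank 510 among the tested genes. Igtp (530), Irgm1 (542) and Iigp1 (565) came after it. At D3, Igtp and Irgm1 ranked 305 and 313, ahead of Gbp2 at 503.

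Counted gene by gene with the edgeR quasi-likelihood (QL) test and Benjamini-Hochberg adjustment, 9 of 9 tested genes rose at D1, where 3.74% of all tested genes did. Gbp9 is among these 9 and had passed the filter only through D1 LPS libraries, so its place in this count was favoured by the filter. At D3 7 rose (background 4.43%), at D7 8 rose (5.15%), at D21 7 rose (6.77%) and at D49 6 rose (5.24%). The sole fall among them was Iigp1 at D7, where 4.47% of tested genes fell. The median log2 fold change of the 9 genes was 2.63, 2.76, 3.25, 2.59 and 1.72 from D1 to D49, while that of all tested genes lay between -0.061 and 0.022. Every LPS library lay above every control library for 10 of the 10 genes at D1 (background of this arrangement 11.1%), 9 at D3 (12.5%), 9 at D7 (31.0%), 9 at D21 (24.7%) and 7 at D49 (15.8%). Iigp1 lay below its controls in every LPS library at D3 (background 15.7%) and D7 (32.5%).

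**Figure D2:**
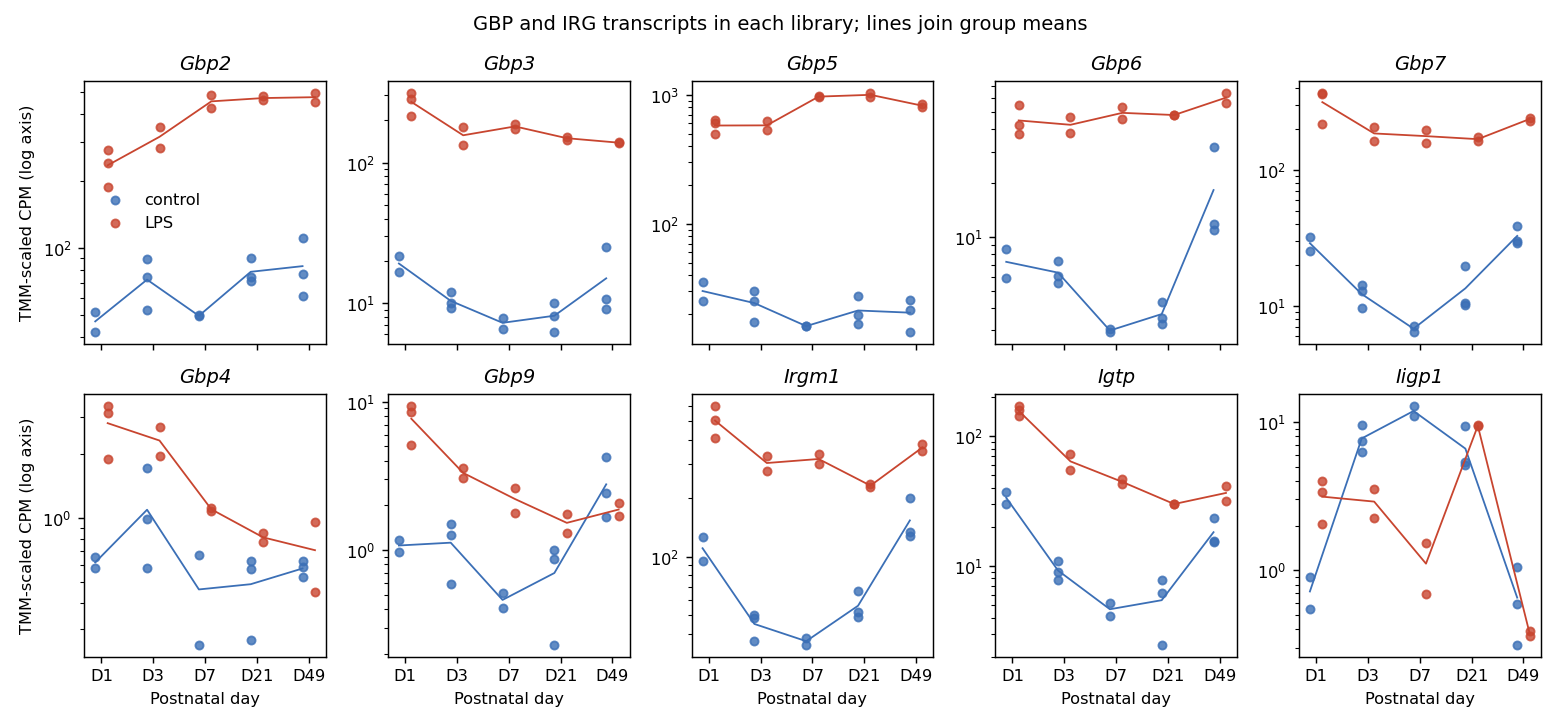
TMM-scaled CPM (log axis) of the 10 genes in each of the 24 libraries by postnatal day, control in blue and LPS in red, with lines joining group means. LPS points lie above control points at every age for Gbp2, Gbp3, Gbp5, Gbp6, Gbp7, Irgm1 and Igtp, whereas Iigp1 is high in D3 to D21 controls and lies lower with LPS at D3 and D7.

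Compared per length, as mean FPKM ± SD, the members with LPS at D1 ranked Gbp2 (93.5 ± 17.3), Gbp5 (87.2 ± 11.6), Irgm1 (86.7 ± 16.4), Gbp3 (82.6 ± 15.7), Igtp (77.2 ± 7.05), Gbp7 (56.4 ± 15.2), Gbp6 (7.52 ± 1.45), Gbp9 (1.48 ± 0.438), Iigp1 (0.538 ± 0.17) and Gbp4 (0.374 ± 0.107). The first 5 of these lay within 1 SD of their neighbours. With LPS at D21 the order was Gbp2 (187 ± 4.99), Gbp5 (151 ± 7.09), Gbp3 (45.6 ± 1.83), Irgm1 (40.01 ± 0.829), Gbp7 (30.1 ± 1.38), Igtp (14.8 ± 0.164), Gbp6 (8.06 ± 0.0526), Iigp1 (1.62 ± 0.0206), Gbp9 (0.295 ± 0.0623) and Gbp4 (0.109 ± 0.00676). Gbp2 and Gbp5 thus stood apart from the rest at D21 but not at D1, while Igtp moved from among the leading genes to below Gbp7.

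Gbp5, a prenylated GBP that promotes inflammasome assembly in mouse macrophages, had the largest LPS response of the family at each age. At D1 it stood at 35.3 and 25 CPM in controls and 641, 493 and 602 with LPS, a log2 fold change of 4.26 ± 0.33 (± SE, as in all log2 fold changes below, adjusted p = 3e-07, edgeR QL). At D7 it went from 16.2 and 16 to 964 and 974 CPM, a difference of 5.91 ± 0.36 or 60.1-fold (adjusted p = 9.7e-09). The D7 group had the lowest control mean, and only the D21 group had a higher LPS mean. At D49 it went from 21.4, 25.5 and 14.6 to 802 and 846 CPM (5.33 ± 0.30, adjusted p = 5.3e-09), and the responses at D3 and D21 were 4.58 ± 0.29 and 5.55 ± 0.30. Its rank by log2 fold change among the 11774 tested genes was 192 at D1, 80 at D3, 52 at D7, 51 at D21 and 68 at D49.

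Gbp2, Gbp3 and Gbp7, the other chromosome 3 genes, rose at all 5 ages by edgeR QL. Gbp2 is prenylated and binds pathogen vacuoles and bacterial surfaces. It stood at 51.7 and 42.1 CPM in D1 controls and 275, 189 and 242 with LPS (2.33 ± 0.28, adjusted p = 4.8e-05). At D49 it stood at 76.5, 111 and 61 CPM in controls and 454 and 496 with LPS (2.52 ± 0.26, adjusted p = 3e-06). Its response had the narrowest range by age of the 9 tested genes, from 2.13 at D3 to 3.20 at D7, and per length its mean was the highest of the members with LPS at every age, at 93.5 FPKM at D1, close to 87.2 for Gbp5, and 187 at D21.

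Gbp3 belongs to the chromosome 3 cluster, whose loss as a whole impairs caspase-11 activation in mouse macrophages. It went from 21.7 and 16.6 to 312, 213 and 284 CPM at D1 (3.81 ± 0.39, adjusted p = 8e-06). At D7 it went from 6.61 and 7.91 to 188 and 173 CPM (4.63 ± 0.42), and at D49 from 10.7, 9.13 and 25.3 to 137 and 139.5 CPM (3.21 ± 0.34). The LPS levels were highest at D1, and D49 control library 3 lay above the other D49 controls. Gbp7, linked in mouse macrophages to assembly of the phagocyte oxidase on pathogen vacuoles, went from 32.3 and 25.4 to 362, 218 and 370.3 CPM at D1 (3.46 ± 0.34, adjusted p = 4e-06). At D7 it went from 6.41 and 7.1 to 197 and 158 CPM (4.72 ± 0.37) and at D49 from 29.1, 38.8 and 30.1 to 232 and 244 CPM (2.87 ± 0.29). No LPS library of either gene overlapped a control library at any age. Of the 50-base stretches of the Gbp7 transcript, 12.7% occur in other transcripts, mostly those of Gm43802, so its counts may be split.

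Among the chromosome 5 genes, Gbp6 rose at all 5 ages, Gbp9 at D1 and D7, and Gbp4 was too low to be tested. Gbp6 went from 8.61 and 5.89 to 54.4, 37.6 and 42.4 CPM at D1 (2.63 ± 0.39, adjusted p = 0.00032) and from 2.94 and 3.04 to 53.1 and 45.6 at D7 (4.04 ± 0.44). At D49 it went from 11.8, 11 and 32 to 56.3 and 63.8 CPM (1.72 ± 0.35, adjusted p = 0.0025). The LPS libraries lay between 37.6 and 63.8 CPM over all ages, whereas the D49 controls were the highest controls. Of these, library 3 was highest and also had the lowest GC deviation (-3.17). Without D49 LPS library 2 the D49 rise of Gbp6 did not pass (1.51, adjusted p = 0.064), nor did it in a fit of the D49 libraries alone (0.15). Of its transcript, 70.7% of 50-base stretches are shared, mostly with Gm43302, so its values are uncertain as to the gene of origin.

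Gbp9 went from 1.18 and 0.969 to 9.34, 5.08 and 8.57 CPM at D1 (2.83 ± 0.58, adjusted p = 0.0047) and from 0.516 and 0.406 to 2.63 and 1.78 at D7 (2.24 ± 0.62, adjusted p = 0.026). At D49 it stood at 1.67, 2.41 and 4.22 CPM in controls and 2.06 and 1.69 with LPS, where the groups overlapped (-0.56 ± 0.53, adjusted p = 0.6). At D3 and D21 its log2 fold changes of 1.56 ± 0.52 and 1.13 ± 0.55 did not pass, but the D3 value passed in DESeq2 (adjusted p = 0.04), with the GC covariate (0.016) and within a GC deviation of 1 (0.031). Within that deviation the D21 value was 2.76 and passed as well (0.031). The D1 call was lost without either D1 control library (adjusted p = 0.068 and 0.096), and the D7 call without any 1 of the 4 D7 libraries (adjusted p = 0.054 to 0.22). Gbp4 stood at 0.658 and 0.582 CPM in D1 controls and 3.15, 1.89 and 3.38 with LPS, where the groups did not overlap. A fit without the filter gave 2.13 ± 0.74 with an adjusted p of 0.12 for Gbp4 at D1, and its LPS levels at D49, 0.451 and 0.965 CPM, overlapped those of controls.

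Irgm1 and Igtp encode the regulatory proteins Irgm1 and Irgm3. Both rose with LPS at D1, D3, D7 and D21, and their smallest log2 fold change was at D49, where Irgm1 alone passed. Irgm1, which guards the cell's own membranes and takes part in autophagy, went from 126 and 94.8 to 599, 504 and 408 CPM at D1 (2.19 ± 0.26, adjusted p = 3.7e-05). At D7 it went from 38.2 and 35 to 339 and 299 CPM (3.12 ± 0.28, adjusted p = 5.6e-07), and at D49 from 134, 127 and 200.4 to 349 and 382 (1.25 ± 0.23, adjusted p = 0.0013). The D49 controls had the highest control mean, and the D49 LPS libraries lay below every D1 LPS library. The D49 rise of Irgm1 did not pass without D49 LPS library 2 (1.08, adjusted p = 0.068) or in a fit of the D49 libraries alone (0.15).

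Igtp went from 30 and 36.8 to 142, 170 and 157 CPM at D1 (2.22 ± 0.36, adjusted p = 0.00062) and from 5.17 and 4.11 to 42.3 and 46.2 at D7 (3.25 ± 0.40, adjusted p = 1.7e-05). At D49 it stood at 23.5, 15.7 and 15.3 CPM in controls and 41 and 31.9 with LPS (1.00 ± 0.33), which missed the threshold (adjusted p = 0.059) although the groups did not overlap. It passed there with the GC deviation as a covariate (0.82, adjusted p = 0.02), in DESeq2 (0.019), among the libraries with a GC deviation within 1 (0.028) and without D49 control library 1 (0.024). The D3 and D21 responses were 2.79 ± 0.33 and 2.46 ± 0.34 for Igtp and 2.76 ± 0.24 and 2.06 ± 0.24 for Irgm1, all of which passed. Of the Igtp transcript, 11.8% of 50-base stretches occur in Irgm2.

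**Figure D3:**
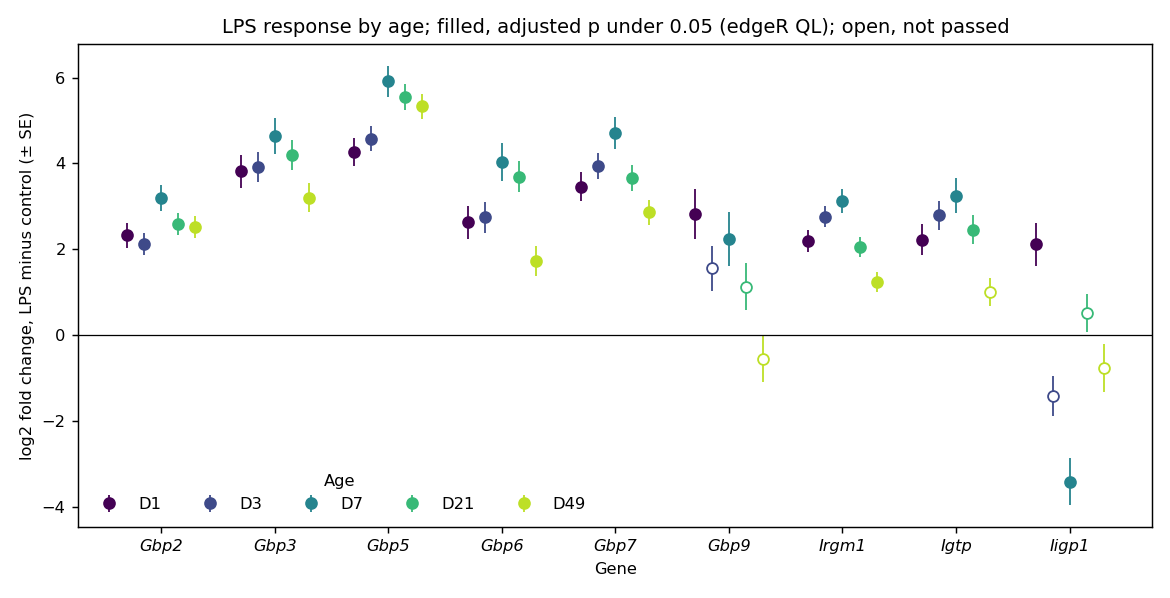
log2 fold change of LPS against control (± SE, y axis) for the 9 tested genes at D1, D3, D7, D21 and D49 (colour), with filled points where the adjusted p of edgeR QL was under 0.05. Gbp5 is highest at each age, the D49 point is the lowest for Gbp3, Gbp6, Gbp7, Gbp9, Irgm1 and Igtp, and Iigp1 is above 0 at D1 and below 0 at D3 and D7.

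Iigp1, an effector IRG on chromosome 18 that loads onto parasite vacuoles, did not follow the other tested members. Tgtp1, an IRG outside the members and too low for the filter, had a similar pattern. Its mean went from 0.234 to 1.23 CPM with LPS at D1 and from 1.92 to 0.515 at D7. In edgeR QL without the filter neither change passed (adjusted p = 0.12 and 0.30), but the D7 minus D1 response of Tgtp1 did (-4.2 ± 1.1, adjusted p = 0.038). Of its transcript, 81.2% of 50-base stretches are shared, mostly with Tgtp2. Iigp1 rose with LPS at D1, from 0.893 and 0.543 to 3.97, 3.39 and 2.04 CPM (2.12 ± 0.50, adjusted p = 0.014). It fell at D7, from 12.8 and 10.9 to 0.686 and 1.53 CPM (-3.41 ± 0.54, adjusted p = 0.00028). The D7 controls held the highest levels of all libraries, and the LPS groups at D1 and D7 lay on opposite sides of their controls. At D3 it stood at 9.48, 6.28 and 7.46 CPM in controls and 3.55 and 2.25 with LPS, lower in each LPS library but not past the threshold (-1.41 ± 0.47, adjusted p = 0.083, but 0.0053 with the GC covariate and 0.0083 in limma on log2(FPKM + 1)). At D21 it stood at 5.34, 9.33 and 5.15 CPM in controls and 9.5 and 9.33 with LPS (0.51 ± 0.44), and at D49 at 0.313, 0.587 and 1.06 and 0.386 and 0.362 (-0.76 ± 0.55), and the groups overlapped at both ages. The D1 rise was lost in a fit of the D1 libraries alone (adjusted p = 0.15) and in limma on log2(FPKM + 1) (adjusted p = 0.17), but not in limma on log2(FPKM + 0.1). It was also lost without D1 control library 1 (log2 fold change 2.52) or 2 (1.80). The D7 fall passed without any 1 D7 library, with log2 fold changes of -4.10 to -2.95.

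Transcripts of liver cells moved with Iigp1. Over the 10 group means of log2 CPM, the genes whose pattern was most like that of Iigp1 were Gsta3 (Pearson r = 0.972), Nat8f2 (0.966), Saa4 (0.956), Cfi (0.952), Fga (0.945), Uox (0.944), Cyp2c68 (0.938) and Serpina3m (0.937). Several of these, such as the fibrinogen chain Fga and the urate oxidase Uox, are made mainly by hepatocytes. A list of 16 hepatocyte transcripts, written after this was seen, was tested in full and had no member at 0 in all libraries. The list includes Saa4, Fga and Uox, named above for their likeness to Iigp1. Its summed level was 18.4 and 18.4 CPM in D1 controls and 179, 150.1 and 116 with D1 LPS, and 426 and 322 in D7 controls and 35.5 and 87.8 with D7 LPS. It was thus higher with LPS at D1 and lower at D7, as Iigp1 was. At D21 it was 451, 189 and 315 in controls and 427 and 353 with LPS, and at D49 21.2, 69.1 and 88.3 and 20.9 and 98.2. D3 controls held 284, 176 and 280.1 and D3 LPS libraries 225 and 202 CPM, which overlapped where Iigp1 did not. Albumin (Alb), a defining hepatocyte product and the largest part of the summed level, was 9.2 ± 2.42 CPM in D1 controls, 85 ± 23.4 with D1 LPS, 262 ± 40.1 in D7 controls and 40.4 ± 19.9 with D7 LPS. The part of these transcripts in the Iigp1 result was not tested. The other 8 tested genes rose at D7, and the part of these transcripts in their results was not tested either. The pattern of each of the 8 correlated negatively with that of Iigp1 (r = -0.52 for Irgm1 to -0.20 for Gbp2, across 10 group means). Those group means share the split into control and LPS libraries.

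**Figure D4:**
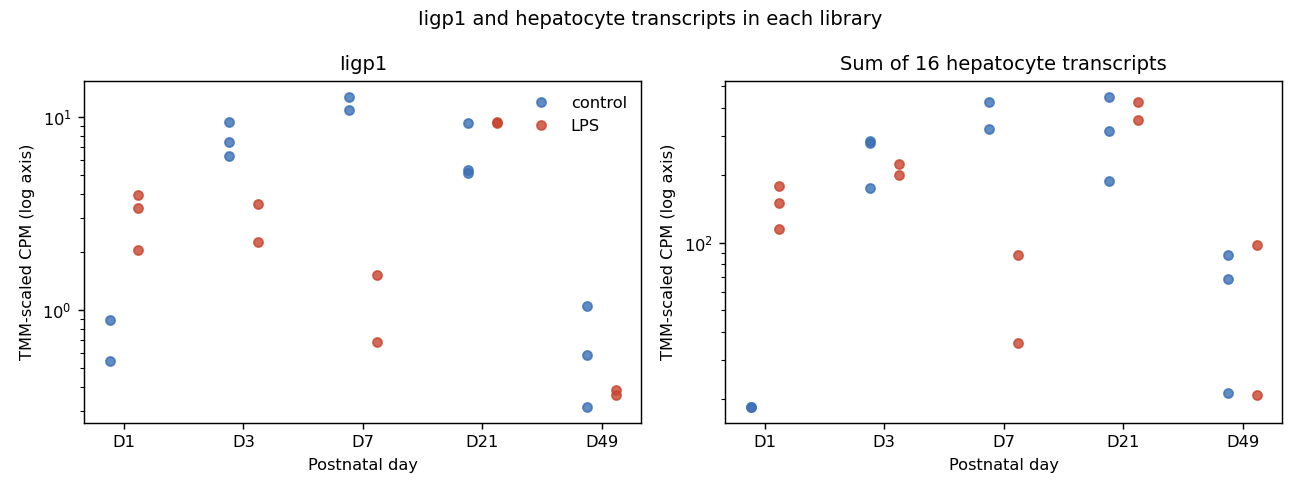
TMM-scaled CPM (log axis) of Iigp1 (left) and of the sum of 16 hepatocyte transcripts (right) in each library by postnatal day, control in blue and LPS in red. Both are low in D1 controls and D49 libraries, higher in D1 LPS than in D1 control libraries, and lower in D7 LPS than in D7 control libraries.

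Without LPS, most of the family was lowest at D7 and higher at both ends of the age range. Igtp was 33.4 ± 4.83 CPM in D1 controls, 4.64 ± 0.747 at D7 and 18.2 ± 4.63 at D49. Irgm1 was 110.5 ± 22.1, 36.6 ± 2.21 and 154 ± 40.5 CPM, and Gbp7 28.9 ± 4.89, 6.75 ± 0.492 and 32.7 ± 5.29 CPM at the same ages. The order was the reverse for Iigp1, at 0.718 ± 0.248, 11.9 ± 1.35 and 0.652 ± 0.376 CPM, and Gbp2 varied least, with group means from 46.9 CPM at D1 to 83 at D49. In bulk samples such as these, fewer cells of a type and less RNA per cell cannot be told apart.

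Between D1 and D3 controls, Gbp7 (-1.25 ± 0.29, adjusted p = 0.031), Irgm1 (-1.30 ± 0.24, adjusted p = 0.0048) and Igtp (-1.86 ± 0.33, adjusted p = 0.0038) fell and Iigp1 rose (3.42 ± 0.53, adjusted p = 0.001). That was 4 of 9 genes against a background of 1.67% called in either direction. The call for Gbp7 was lost without any 1 of the 5 libraries compared, that for Irgm1 without D1 control library 1 (adjusted p = 0.14) and that for Igtp without D1 control library 2 (0.056).

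No member passed from D3 to D7 in controls (background 0.161%, 5 members at an unadjusted p under 0.05, 0 by the DESeq2 Wald test and by limma) or from D7 to D21 (1.10%, 3 members unadjusted, 0 by the Wald test and by limma). Here and below, the background is the share at an adjusted p under 0.05 and does not apply to the unadjusted counts. The share of all tested genes at an unadjusted p under 0.05 is not given, so those counts are not a result about the members. From D21 to D49, Gbp6 (2.30 ± 0.34, adjusted p = 0.0009), Irgm1 (1.46 ± 0.22, adjusted p = 0.00099), Igtp (1.74 ± 0.31, adjusted p = 0.0049) and Gbp7 (1.28 ± 0.27, adjusted p = 0.017) rose. Iigp1 fell by 3.36 on the log2 scale (adjusted p = 0.0005). That was 5 of 9 genes against a background of 1.26%, and Gbp9 passed in addition in DESeq2 (2.02, adjusted p = 0.015). The Gbp7 call was lost without D21 control library 1 or 3 or D49 control library 2 or 3 (adjusted p = 0.057 to 0.12). In fits of only the 2 groups compared, none of the 9 calls of these paragraphs between neighbouring ages passed (adjusted p = 0.052 to 0.67).

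From end to end, D1 to D49 controls, Gbp2 rose (0.82 ± 0.26, adjusted p = 0.021), Gbp6 rose (1.33 ± 0.37, adjusted p = 0.012) and Igtp fell (-0.88 ± 0.33, adjusted p = 0.038). With 42.8% of all tested genes called, 3 of 9 was no more than the background. GC deviation moved with these ages, from 0.36 and 2.28 in D1 controls to -0.095, -2.08 and -3.17 in D49 controls. None of the 3 passed with it as a covariate (adjusted p = 0.39, 0.42 and 0.68) or among libraries within 1 (0.076, 0.35 and 0.23), while Gbp3 then fell (-1.03 with the covariate, adjusted p = 0.049). Among libraries within 1 Gbp5 fell too (-0.77, adjusted p = 0.013), and Gbp9 rose in DESeq2 (1.42, adjusted p = 0.032). Without D1 control library 2, none of the 9 genes passed.

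With LPS, mean levels of Gbp3, Gbp7, Gbp9, Irgm1 and Igtp were highest at D1, whereas that of Gbp2 was lowest there (the plot of levels relative to D1). From D1 to D49, Igtp fell by 2.10 on the log2 scale (adjusted p = 0.00046), from 156 ± 14.3 to 36.4 ± 6.47 CPM. Iigp1 (-3.05 ± 0.55, adjusted p = 0.0008), Gbp9 (-2.03 ± 0.56, adjusted p = 0.013) and Gbp3 (-0.96 ± 0.34, adjusted p = 0.04) also fell. Gbp2 rose from 235 ± 43.4 to 475 ± 29.8 CPM (1.01 ± 0.25, adjusted p = 0.008). The background was 30.7% called in either direction, against 5 of 9 members, among them Gbp9, which had entered the tests through D1 LPS libraries. Of these calls, those for Igtp and Iigp1 passed without any 1 library, those for Gbp2 and Gbp9 were lost without D49 LPS library 2 (adjusted p = 0.15 and 0.15), and that for Gbp3 without any 1 of the 5 (0.059 to 0.21). Gbp9 was lost as well without D49 LPS library 1 (0.068) and Gbp2 without D1 LPS library 2 (0.06).

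With the GC covariate Gbp2 did not pass (0.075), and Irgm1 (-0.90, adjusted p = 0.0047) and Gbp7 (-0.86, adjusted p = 0.035) fell as well. The summed level of 7 neutrophil markers, of which 3 were tested, was 165 ± 41.4 CPM with D1 LPS and 25.7 ± 2.44 with D49 LPS. S100a8 made up most of both sums (158 and 17.9 CPM), while Cxcr2 was 1.48 and 6.07 CPM and Ly6g at most 0.067 in these groups. Their part in the age differences was not tested. Between neighbouring ages with LPS, the 2 calls among members were of Iigp1, which rose from D7 to D21 (3.08 ± 0.53, adjusted p = 0.0086, background 0.654%) and fell from D21 to D49 (-4.63 ± 0.59, adjusted p = 0.0039, background 0.0170%). The first was lost without D7 LPS library 1 (adjusted p = 0.27) or either D21 LPS library (0.057 and 0.06). The second was lost without either D49 LPS library (0.17 and 0.072). No member passed from D1 to D3 with LPS (background 0.425%, 5 members unadjusted, 0 by limma), although Igtp did in DESeq2 (-1.31, adjusted p = 0.0041). None passed from D3 to D7 (0.0425%, 2 members unadjusted, 0 by DESeq2 and by limma).

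**Figure D5:**
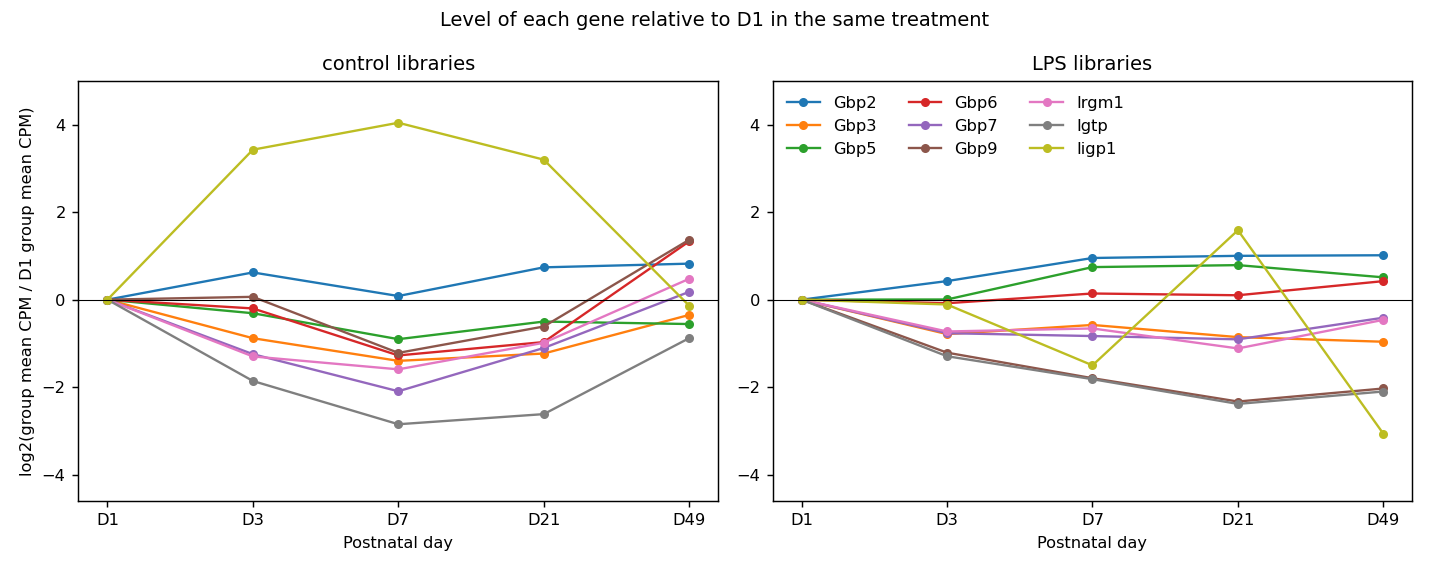
log2 ratio of each group's mean CPM to the D1 mean of the same treatment, for the 9 tested genes in control (left) and LPS libraries (right) by postnatal day, with no error shown. In controls, all genes but Gbp2 and Iigp1 lie below their D1 level at D7, and with LPS, Igtp and Gbp9 lie furthest below D1 from D3 to D21.

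Whether the LPS response itself differed from that at D1 was tested as an interaction. At D7, the response of Iigp1 differed by -5.53 ± 0.74 (adjusted p = 0.00056), and it was the sole member of 9 to pass, against 0.629% of tested genes. The hepatocyte transcripts given above moved the same way. Of the others at D7, Gbp5 had the largest difference, 1.65 ± 0.40, with an adjusted p of 0.074, and it passed in DESeq2 (1.62, adjusted p = 0.011). At D3 no member passed (background 0.0934%, 1 member at an unadjusted p under 0.05, 0 by limma), but Iigp1 did in DESeq2 (-3.51, adjusted p = 0.001). At D21 no member passed (background 0.297%, 4 members unadjusted, 0 by DESeq2 and by limma).

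The D49 response minus the D1 response passed for 0 of 9 genes (background 0.204%), with 5 members at an unadjusted p under 0.05. The differences were -3.39 ± 0.78 for Gbp9 (adjusted p = 0.11), -2.88 ± 0.74 for Iigp1 (0.17), -1.22 ± 0.47 for Igtp (0.67), -0.94 ± 0.34 for Irgm1 (0.55) and 1.07 ± 0.38 for Gbp5 (0.52). None of these differences, negative for 4 genes and positive for Gbp5, passed the adjusted threshold. Gbp9 passed in DESeq2 (-3.48, adjusted p = 0.0067), in limma on log2(FPKM + 1) (0.028) and with the GC covariate (0.01), and Iigp1 with the covariate (0.034). The Gbp9 difference uses the D1 LPS group, through which Gbp9 entered the tests.

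Of 16 other GTPase genes listed with the families, 7 were tested, and 7, 5, 5, 5 and 4 of them rose with LPS from D1 to D49 and 0 fell. Of all tested genes, 3.74, 4.43, 5.15, 6.77 and 5.24% rose at these ages, the background for this list and those that follow. Gvin1, among the 7, is a very large GTPase and neither a GBP nor an IRG. It rose at 4 ages, and 99.2% of its 50-base stretches are shared, mostly with Gm4070. Genes of the list below the filter are not in the counts of rises. Among them, Gbp8 had a lower mean with LPS at every age, from 1.76 to 0.359 CPM at D7 (-2.28 ± 0.80, adjusted p = 0.095, edgeR QL without the filter). Tgtp1 was lower with LPS at D7 as well, whereas Tgtp1, Gm4951 and Gm12185 had higher means with LPS at D1. Gm12250, the IRG known as Irgb10, rose from 14.8 ± 1.83 to 105 ± 5.04 CPM at D1 (2.82 ± 0.48, adjusted p = 0.00095) and by 4.79 ± 0.56 at D7 and 2.81 ± 0.43 at D49. Gm5431, which shares 37.3% of its 50-base stretches, mostly with 9930111J21Rik1, rose at all ages, by 2.57 ± 0.39 at D1 and 1.54 ± 0.35 at D49. Tgtp2, whose transcript shares 86.6% of its 50-base stretches, mostly with Tgtp1, also rose at all ages. Tgtp2 had reached the filter's minimum in 7 libraries, all of them with LPS, so its place in the counts of rises was favoured by the filter. At D49 the call for Tgtp2 was lost without either D49 LPS library (adjusted p = 0.13 and 0.12) and with no filter (0.13), and that for Gm5431 without D49 LPS library 2 (0.14). In a fit of the D49 libraries alone neither passed, nor did Irgm2 (0.16). Irgm2, the third IRGM protein, rose at all ages, by 1.87 ± 0.25 at D1, 3.23 ± 0.28 at D7 and 1.16 ± 0.23 at D49. Both Irgm1 and Irgm2 had their largest log2 fold change at D7 and their smallest at D49.

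Among 6 tested genes of interferon ligands and receptors, Ifnb1, which encodes interferon beta, rose at all 5 ages. It went from 1.22 ± 0.0755 to 14.4 ± 0.18 CPM at D1 (3.56 ± 0.74, adjusted p = 0.005) and from 0.163 ± 0.142 to 3.54 ± 0.454 at D49 (4.37 ± 0.76, adjusted p = 0.00066). The D1 call was lost without D1 control library 1 (0.082) or 2 (0.089) and the D49 call in a fit of the D49 libraries alone (0.075). The type I receptor subunit Ifnar2 passed at D7 (1.00 ± 0.30) and the interferon gamma receptor subunit Ifngr1 fell at D3 (-0.99 ± 0.29, adjusted p = 0.041). The Ifnar2 call was lost without any 1 D7 library (adjusted p = 0.093 to 0.36), and the Ifngr1 call in 9 alternatives, among them the replicate block (0.057) and the removal of either D3 LPS library (0.2 and 0.31) or of D3 control library 1 or 2 (0.11 and 0.11). Ifng, which encodes interferon gamma, had 0 counts in all 5 libraries at D1, where a count of 0 allows up to 0.175 CPM, and at most 0.72 CPM in any library. Markers of T and NK cells, the usual sources of interferon gamma, summed to between 0.525 and 2.87 CPM, and 0 of 11 were tested.

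Of 14 tested genes of interferon signal transduction, 6, 7, 6, 8 and 6 rose with LPS from D1 to D49 and 0 fell, against the 3.74 to 6.77% of all tested genes. Usp18, a brake on type I interferon receptor signalling, rose by 3.02 ± 0.36 at D1, 5.02 ± 0.42 at D7 and 1.40 ± 0.31 at D49. The transcription factor Irf7 rose by 2.62 ± 0.31, 4.29 ± 0.36 and 0.99 ± 0.27 at these ages, and Socs3, a feedback inhibitor of cytokine signalling, passed at 4 of 5 ages. At D1 Socs3 missed the threshold but passed in DESeq2 (2.16, adjusted p = 0.0038), in limma on log2(FPKM + 1) (0.027) and with the GC covariate (1.8e-05). The D49 rise of Irf7 was lost without either D49 LPS library (adjusted p = 0.16 and 0.12), in limma and with no filter, and that of Usp18 without D49 LPS library 1 (0.065). Socs3 lost its D3 call without D3 control library 1 or 3 or LPS library 2 (0.094 to 0.31), and its D7 call without either D7 control library or LPS library 1 (0.051 to 0.19). Irf1, a factor needed for full GBP induction in mouse cells, passed at D21 (3.79 ± 1.01, adjusted p = 0.016), a call lost without D21 control library 2 or 3 or LPS library 2 (0.069 to 0.089). With the GC covariate Irf1 passed at D7 (0.00026) and D49 (0.0001) too, and with no filter at all ages.

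Of 10 tested genes of cytosolic LPS sensing and the inflammasome, 1, 2, 3, 2 and 2 rose from D1 to D49 and 0 fell, against that background of 3.74 to 6.77%, and counts this small are not a result about the list. Il1b, the cytokine precursor cut by caspase-1, rose at all ages (2.56 ± 0.30 at D1 and 4.57 ± 0.29 at D49) and Nlrp3, the sensor linked to Gbp5, at all but D1 (2.39 ± 0.36 at D49). The D3 call of Nlrp3 was lost with the replicate block (0.08), in limma and without D3 control library 1 or 3 or either D3 LPS library (0.082 to 0.39), and its D7 call without either D7 control library or LPS library 2 (0.065 to 0.099). Casp4, which encodes mouse caspase-11, passed at D7 (1.21 ± 0.35, adjusted p = 0.031), with 0.97 ± 0.32 at D1 and 0.77 ± 0.31 at D49. The D7 call was lost without any 1 of the 4 D7 libraries (adjusted p = 0.096 to 0.2) and in limma, while with the GC covariate Casp4 passed at D1, D3, D21 and D49 as well (0.00013 to 0.00027). Casp1 and the pore former Gsdmd passed at no age (log2 fold changes of -0.55 to 0.37 and of -0.13 to 1.51). Of 15 tested genes of GTPase loading and autophagy, 1 rose at each age, a share near the background of 3.74 to 6.77%, the antibody receptor Trim21 (2.20 ± 0.36 at D1 and 2.05 ± 0.33 at D49). Of 5 CaaX prenylation genes, whose enzymes anchor Gbp2 and Gbp5 to membranes, 0 passed at any age, with log2 fold changes of 0.11 to 0.85 for the farnesyltransferase subunit Fntb and -0.61 to -0.25 for the prenyltransferase subunit Pggt1b.

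Over the 10 group means of log2 CPM, the genes outside the family closest to the mean of its 9 tested members, each standardized, were Adgrg6 (Pearson r = 0.981), Nfkbil1 (0.979), Il33 (0.979), Agrn (0.979), Rsad2 (0.979), Trim30c (0.975), Ifit2 (0.974) and Nfkb1 (0.973). These points share the split into control and LPS libraries, which any LPS-responsive gene follows. Of the members, Gbp3 (r = 0.990) and Gbp7 (0.985) lay closest to that mean, Gbp9 (0.824) was the furthest of the GBPs, and Iigp1 was at -0.262.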

How the data were processed

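Whole-number read counts per Ensembl gene and exonic lengths were used as the authors deposited them. The submitters' processing notes list STAR, DESeq2 and GRCm39 without their roles, and which counter, annotation, strand setting and versions were used is not given in the sources read. Of the 56691 genes, 52073 had a symbol in the reference gene name table. The GENCODE M21 transcripts, a GRCm38 annotation, gave the GC content of the longest transcript (97.2% of tested genes) and the share of 50-base stretches found in other transcripts.

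Counts were fitted with the quasi-likelihood test of edgeR 4.0.16 (R 4.3.3), with TMM scaling and a mean for each of 10 groups over 24 libraries. The Benjamini-Hochberg adjustment covered the 11774 genes for which 2 or more libraries reached an FPKM of 1, at a threshold of 0.05. Standard errors come from the QL F statistic. Levels are TMM-scaled CPM (mean ± SD), and FPKM for comparisons between genes divides them by exonic length, while the filter used FPKM on library totals. Totals of 15770751 to 23334625 counts bound the precision, and the limit for a count of 0 is 3 counts and covers counting error only.

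GC deviation is the median log2 deviation of a library from the mean in the 10% most GC-rich genes minus that in the 10% most GC-poor. Alternatives were DESeq2 1.42.0 and its size factors, limma 3.58.1 on log2(FPKM + 1) and log2(FPKM + 0.1), no filter, only the groups compared, a GC covariate, a replicate block, libraries within a GC deviation of 1, and each library left out. The code was tested on simulated counts.

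The members and lists were chosen with earlier results of these data known, and the hepatocyte list and the genes most like Iigp1 after their values were seen. Named genes were the 10 members, the 3 list genes with the largest rise and fall among those passing at some age, a fixed set (Ifnb1, Ifng, Irf1, Casp4, Casp1, Gsdmd, Fntb, Pggt1b), and the 8 genes, without Gm or Rik names, most correlated over group means of log2 CPM with the mean of the standardized tested members. Irgm2 and Alb were added, and a gene of the fixed set is not reported here. No pair of replicates was a copy (lowest chi-square per degree of freedom 14.4), and the table held 0 further sample columns and 0 lines without a gene.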

Additional observations from a re-analysis of the deposited data

Results flagged for a closer look

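Iigp1 was singled out because its LPS response at D7 differed from that at D1 by the interaction test, by -5.53 ± 0.74 on the log2 scale (adjusted p = 0.00056, edgeR QL). The D7 controls used there are among the groups in which Iigp1 reached the filter's minimum. LPS was above control in 3 of 3 D1 libraries and below it in 2 of 2 D7 libraries. The difference passed in every alternative run for it, with values of -6.22 to -1.92, the smallest of them on the log2(FPKM + 1) scale, where low genes are compressed. The summed level of 16 hepatocyte transcripts was 18.4 ± 0.0465 CPM in D1 controls, 148 ± 31.8 with D1 LPS, 374 ± 73.4 in D7 controls and 61.7 ± 37 with D7 LPS, and its part in the Iigp1 result was not tested.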

How the results depend on the processing

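The number of members raised by LPS at D3 was 7 without any 1 library, as at D21. It was 7 to 9 at D1 (9 with all), 7 at D7 (8 with all) and 4 to 7 at D49 (6 with all, 4 without D49 LPS library 2). Between D1 and D49 controls it was 0 to 4 (3 with all), 0 when only the groups compared were fitted and 1 with the GC covariate, alone or with the replicate block. With LPS from D1 to D49 it was 2 to 4 (5 with all). The D49 minus D1 response passed for 1 member in DESeq2 and in limma on log2(FPKM + 1), and for 2 with the GC covariate, alone or with the block. Of the 11774 tested genes, 97, 94, 191 and 127 passed for this response in those fits, in that order. For D1 to D49 controls, 116 of the tested genes passed when only the groups compared were fitted. With the covariate 1228 did, and 1230 with the block as well, so 1 of 9 members was near the background there.

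Signs that turned belonged to values that did not pass. For D1 to D49 controls, Gbp7 was -0.19 and -0.22 in limma, -0.35 and -0.33 with the GC covariate (alone and with the block) and -0.20 within a GC deviation of 1, Irgm1 was -0.056 and -0.045 with the covariate, and Iigp1 was -0.67 to 0.23 without 1 library (0.19 and 0.23 without D49 or D1 control library 1). Gbp6 with LPS from D1 to D49 was -0.18 with the covariate and -0.071 within 1. At D49 Gbp9 and Iigp1 were each 0.32 within 1. Without 1 library, Irf1 at D3 was -0.21 to 1.85, and the D49 minus D1 response was -0.035 to 0.46 for Gbp2 (-0.030 without D49 LPS library 2) and -0.87 to 0.040 for Gbp3. The causes were not tested.

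Deviations of same-numbered libraries correlated at 0.073 to 0.83, over 0.1 in 7 of 10 cases and highest at D1 and D3. Since not every correlation was over 0.1, and no label ties the numbers to a shared source, they were not taken as pairs. Correlations at D1 and D3 were 0.61 to 0.83. The 2 values at D7 (0.0975) are equal by construction, because each group there has 2 libraries. A shared source of same-numbered libraries was not tested. The replicate block fits an effect of each replicate number that is shared by all ages. It does not pair libraries within an age and so could not test such pairing. With the block, 162 of 168 gene values kept direction and side of the threshold, 5 lost the call and 1 gained it. Among those lost were Gbp7 from D1 to D3 (adjusted p = 0.07) and Igtp from D1 to D49 (0.054) in controls. Groups of 2 or 3 libraries limit what a missed threshold shows, and a lone library left in a group is assumed to vary like the others.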
